A study of Mus musculus with 6 samples.

Results

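A set of 43 genes of DNA replication, mitosis and cell cycle entry was followed in the calvaria, the bony roof of the skull, of newborn mice. The genes were taken by name, and all 43 were found among the 24346 gene names that each library lists. They comprised 18 genes of S phase, 18 genes of mitosis, 3 D-type cyclins and 4 inhibitors of cyclin-dependent kinases, the Cdkn genes. Levels are given in FPKM, a fragment count corrected for transcript length and library total. All 43 reached the mean of 1 FPKM over the 6 libraries that was needed to enter the test, as did 13180 names in all.

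RNA from whole dissected calvaria was sequenced in 3 control libraries of genotype Pth1rfl/fl and 3 libraries labelled mutant, of genotype Prx1-Cre;Pth1rfl/fl. Both groups thus share the floxed alleles of Pth1r, the receptor for parathyroid hormone and its related protein. Prx1-Cre is known to act in mesenchyme of the limb and of parts of the skull, and cells outside that lineage are not its targets. The controls carry no Cre, and effects of Cre itself and of the deletion cannot be told apart. The labels do not say that replicates were separate animals, and p-values therefore measure only the spread between these libraries.

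A dividing cell copies its chromosomes in S phase and separates the copies in mitosis. D-type cyclins with their kinases, and then cyclin E, relieve the retinoblastoma protein's hold on E2F factors, which switch on the replication genes. Cdkn proteins restrain these kinases. Mitotic genes are switched on later, through a promoter element called the cell cycle genes homology region (CHR) that acts together with CCAAT boxes. In the growing calvaria, dividing cells are known from the osteogenic fronts, the sutures, the cartilage and the marrow.

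Pth1r did not check the labels: it stood at 89.2, 93.3 and 102 FPKM in controls, against 127, 125 and 142 FPKM in libraries labelled mutant. Its log2 difference was 0.47 ± 0.08 (SE, limma with Benjamini-Hochberg adjusted p = 0.065), and the exact two-sided permutation p was 0.1, the smallest that 3 against 3 libraries allow. Its locus overlaps Myl3, and the files give no value per exon. Over all 13180 tested genes, 69 (0.524%) rose and 11 (0.0835%) fell in the libraries labelled mutant at an adjusted p under 0.05. With any 1 library left out these counts lay between 14 and 34 and between 1 and 12, with the lowest of both when labelled mutant 1 was left out. Of 8 osteoclast markers 7 rose, and their summed level was 586 to 657 FPKM in controls, against 1606 to 1752 FPKM in libraries labelled mutant. Of 8 cartilage markers 2 fell, and their sum was 1073 to 2138 FPKM against 508 to 643 FPKM. Of 8 osteoblast markers, all of which passed the level filter, 1 rose, and their sum was 18799 to 21280 FPKM against 18925 to 26135 FPKM. Col1a1 and Col1a2 made up most of that sum. Ibsp was the marker that rose. Runx2, Alpl and Dmp1 were also higher without overlap between groups, and Bglap was lower without overlap, with a ratio of means of 0.381. None of these 4 passed the test. Of 6 endothelial markers 1 rose, with sums of 176 to 183 FPKM and 207 to 211 FPKM. Other markers were tested only where they reached 1 FPKM: 4 of 8 for neutrophils, 1 of 8 for lymphoid precursors, 5 of 6 found for red cells, 7 of 8 for muscle, 6 of 8 for nerve and 1 of 4 for skin, of which 0 passed. Absolute depth is not given in the sources used here. With control 1 set to 1, relative depth was lowest in labelled mutant 3, at 0.703.

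No member passed the test in either direction, by limma on log2(FPKM + 1) with Benjamini-Hochberg adjustment over all 13180 genes. The smallest adjusted p of a member was 0.259, for Rrm2. An unadjusted p under 0.05 was reached by 5 of the 43 members, against 10.5% of all tested genes. The control and labelled mutant values did not overlap for 4 of the 43 members, which were higher in the libraries labelled mutant, against 9.34% of all tested genes. They did not overlap either for 2 of the 43, Rrm2 and Cdkn1c, which were lower there, against 6.79% of all tested genes. Over the 43 members together the shares were thus close to those of genes at large, though the 4 higher ones were all mitosis genes. By value, 27 members were higher and 16 lower, where 50.5% of all tested genes were higher. The median log2 difference of the members was 0.02 beside 0.00 over all tested genes. In these whole-tissue libraries, a change in the number of cycling cells and a change in RNA per cycling cell cannot be told apart.

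The 95% intervals give the size of difference that the spread allows. For 41 of the 43 members the whole interval lay within a 1.5-fold change of FPKM + 1 in either direction. The exceptions were Gins2, with an interval of -0.63 to 0.26 on the log2 scale, and Ccne1, with -0.60 to 0.11. For 38 members the interval contained 0.

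**Figure D1:**
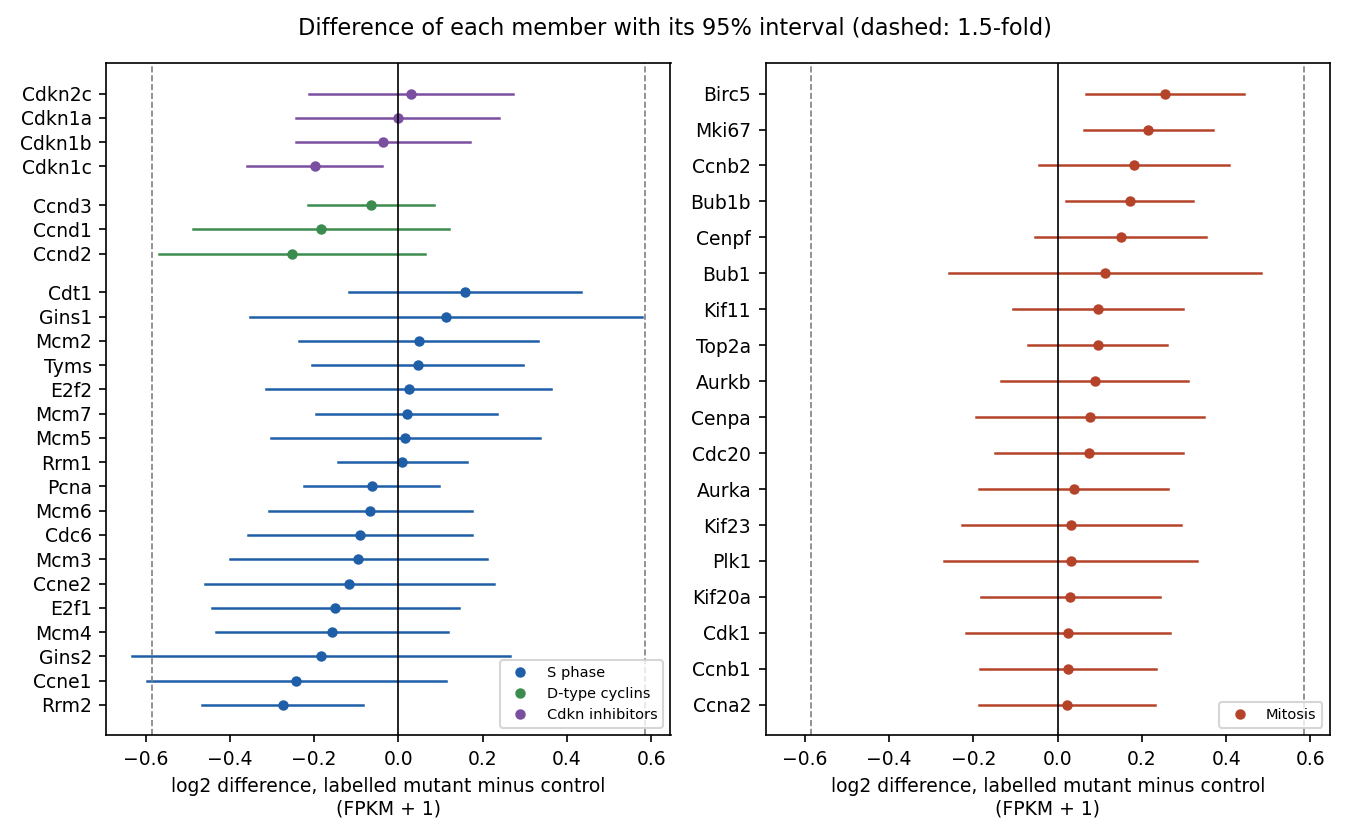
Log2 difference of each member on log2(FPKM + 1), libraries labelled mutant minus controls, as a point with its 95% interval (3 libraries per group); dashed lines mark 1.5-fold. All 18 mitosis points lie to the right of 0, S phase points lie on both sides, and 41 of 43 intervals stay inside the dashed lines.

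Levels of the members spanned more than their differences between groups. The highest mean over 6 libraries was 295 FPKM, for Cdkn1c, and the lowest was 1.14 FPKM, for Cdc6, the protein that loads the helicase at replication origins. The median over the 18 S phase genes was 10.04 FPKM and that over the 18 mitosis genes was 11.6 FPKM, beside 10.3 FPKM over all tested genes. Among S phase genes Pcna, the sliding clamp of the replicative polymerases, was highest, at 51.6 to 59.9 FPKM. Among mitosis genes the highest was Birc5, which encodes survivin, at 27.0 to 37.2 FPKM.

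**Figure D2:**
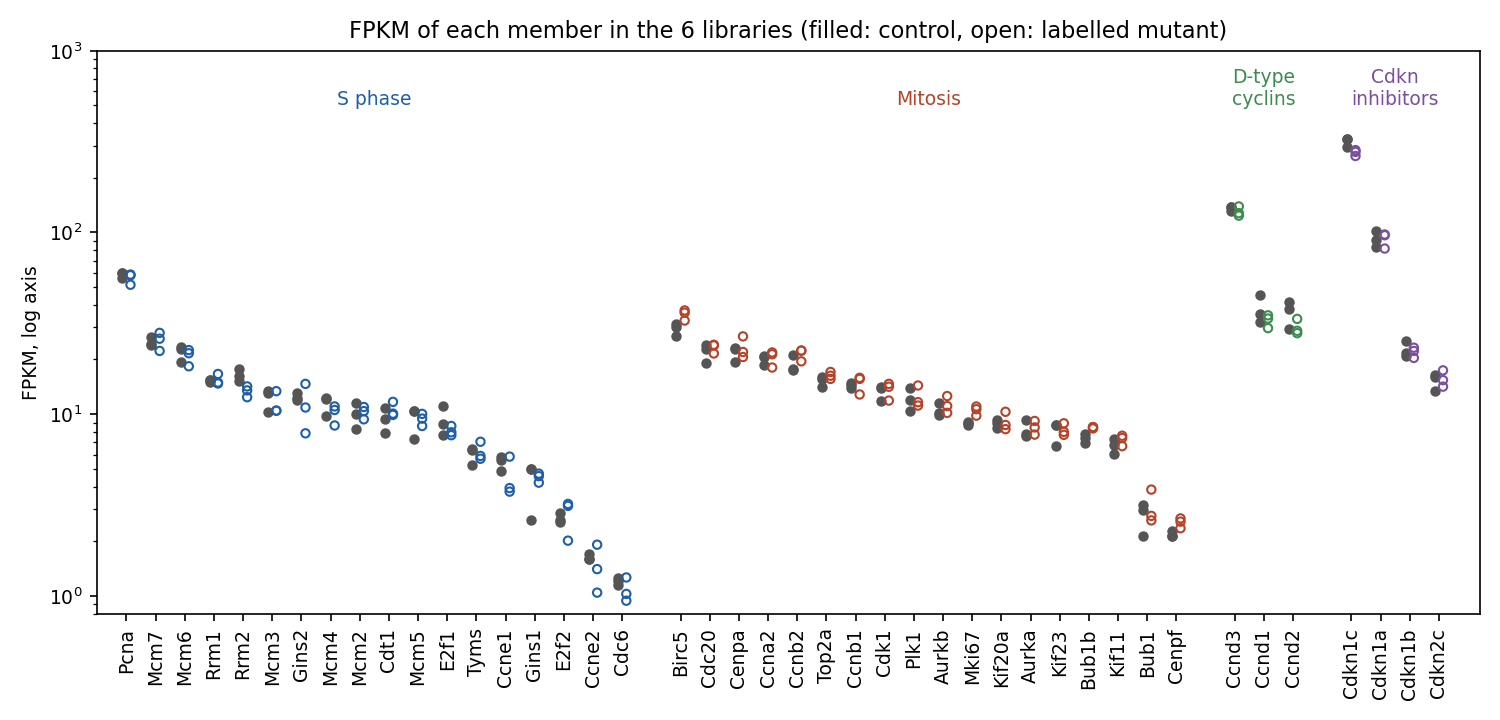
FPKM of each member in each library on a log axis, ordered by mean level within its group (filled grey points, 3 controls; open coloured points, 3 libraries labelled mutant). Mean levels run from 1.14 FPKM for Cdc6 to 295 FPKM for Cdkn1c, and the 2 sets of points sit close together for nearly every gene.

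The 18 S phase genes lay on both sides of 0: 8 were higher and 10 lower in value in the libraries labelled mutant, and none passed the test. Their median log2 difference was -0.07, and with 1 library left out it ran from -0.13 without control 1, through -0.03 without control 2, to 0.01 without labelled mutant 2. The count of higher genes was 10 without labelled mutant 2, 4 without control 1, 4 without labelled mutant 3 and 5 with array weights. It was 2 after rescaling each library to transcript shares (TPM), where the median was -0.12. TPM rescaling also moved the median of all tested genes from 0.00 to -0.05, so counts of higher genes under it carry that general shift. Groups were apart for 1 gene only, Rrm2.

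The 6 Mcm genes encode the ring-shaped helicase that unwinds DNA at the fork. Mcm4 stood at 9.77, 12.1 and 12.2 FPKM in controls, against 10.5, 8.67 and 11.0 FPKM in libraries labelled mutant. Control 1 lay inside the range of the other group, and the log2 difference was -0.16 ± 0.12 (SE, adjusted p = 0.729). The other 5 subunits had log2 differences between -0.10 and 0.05, all with overlapping groups. Control 1 was the lowest library for Mcm2, Mcm3 and Mcm5, and labelled mutant 2 for Mcm4, Mcm6 and Mcm7.

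Of the helicase's partners and loading factors, Gins1, a part of the GINS complex that activates the helicase, was 2.62 FPKM in control 1 and 4.201 to 5.01 FPKM in the other 5 libraries. Gins2 was 7.85 FPKM in labelled mutant 2 and 14.7 FPKM in labelled mutant 3, with all 3 controls between them at 11.9 to 13.1 FPKM. Cdt1, which loads the helicase together with Cdc6, was 9.44, 10.8 and 7.92 FPKM in controls, against 11.7, 9.91 and 10.1 FPKM in libraries labelled mutant. The control 2 value exceeded 2 of the 3 labelled mutant values, and the log2 difference was 0.16 ± 0.12 (adjusted p = 0.729).

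Rrm2, the regulated subunit of ribonucleotide reductase, which makes deoxynucleotides, had the smallest adjusted p of all members. It was 16.2, 15.2 and 17.8 FPKM in controls (mean 16.4 ± 1.34, SD, n = 3) and 13.5, 12.4 and 14.2 FPKM in libraries labelled mutant (13.4 ± 0.913, n = 3). Every labelled mutant value lay below every control value. The ratio of means was 0.815 and the log2 difference -0.27 ± 0.08 (SE), with an adjusted p of 0.259 in limma, which ran from 0.0954 to 0.528 over the alternatives. Rrm2 lies at chr12:24708241-24714146 on the plus strand of GRCm38. Its partner subunit Rrm1 differed by 0.01 ± 0.06, and thymidylate synthase, Tyms, by 0.05 ± 0.11, both with overlapping groups.

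Of the genes that open S phase, cyclin E1 (Ccne1) was 4.88, 5.85 and 5.57 FPKM in controls, against 3.92, 3.75 and 5.84 FPKM in libraries labelled mutant. Labelled mutants 1 and 2 lay below all controls while labelled mutant 3 was level with the highest control, and the log2 difference was -0.24 ± 0.15 (adjusted p = 0.666). E2f1, an activating factor of the replication programme, was 7.64, 11.0 and 8.78 FPKM against 7.95, 7.66 and 8.61 FPKM. Its groups overlapped, control 2 was the highest library, and the log2 difference was -0.15 ± 0.12 (adjusted p = 0.775). Ccne2, at 1.04 to 1.91 FPKM, and E2f2, at 2.01 to 3.21 FPKM, were near the low end of the set.

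RefSeq promoter windows of GRCm38.p6, each 250 bases before to 50 bases after a transcription start, matched 33 of the 43 members with 38 windows. An E2F-like word (TTTCGCGC, TTTGGCGC, TTTCCCGC or TTTGCCGC, either strand, overlapping matches counted) occurred in 7 of 16 S phase windows (43.8%), those of Mcm3, Mcm5, Mcm6, Mcm7, Cdc6, Cdt1 and E2f2. It occurred in 1 of 15 mitosis windows (6.67%), that of Cdk1, and in 2.26% of all 32851 windows. The windows of Mcm3, chr1:20820263-20820562, and Mcm6, chr1:128359656-128359955, both on the minus strand, show the words in 2 helicase genes. They are written 5′ to 3′ with E2F-like words, of either strand, in capitals.
Mcm3: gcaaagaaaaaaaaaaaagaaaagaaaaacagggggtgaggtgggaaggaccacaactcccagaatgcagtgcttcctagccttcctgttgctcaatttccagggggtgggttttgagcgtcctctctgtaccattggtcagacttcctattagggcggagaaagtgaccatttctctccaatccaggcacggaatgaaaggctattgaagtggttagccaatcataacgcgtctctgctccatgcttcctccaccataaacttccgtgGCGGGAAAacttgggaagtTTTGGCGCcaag
Mcm6: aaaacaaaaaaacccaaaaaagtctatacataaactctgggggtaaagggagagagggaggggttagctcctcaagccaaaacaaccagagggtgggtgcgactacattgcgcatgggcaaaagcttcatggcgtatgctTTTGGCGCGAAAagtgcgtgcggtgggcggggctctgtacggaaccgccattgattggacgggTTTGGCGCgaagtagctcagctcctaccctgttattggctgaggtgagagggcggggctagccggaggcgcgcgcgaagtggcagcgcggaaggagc
In the Mcm6 window, 2 of the 3 matches overlap and form 1 run of capitals. Both genes had overlapping groups, with log2 differences of -0.10 ± 0.13 for Mcm3 and -0.07 ± 0.10 for Mcm6.

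All 18 mitosis genes were higher in value in the libraries labelled mutant, by 0.02 to 0.26 on the log2 scale, but none passed the test. After TPM rescaling, which moved the median of all tested genes to -0.05, 11 of the 18 were higher. The median log2 difference of the 18 was 0.08, but 0.03 under TPM rescaling. It was 0.03 without control 3, 0.04 without labelled mutant 3, and up to 0.12 without control 2. The count also rested on single libraries: it was 10 without labelled mutant 3, 11 without control 3, 14 without labelled mutant 1 and 17 or 18 without any of the others. Groups were apart for 4 of the 18, each higher in the libraries labelled mutant, where 9.34% of all tested genes were apart in that direction. Labelled mutant 3 was the highest library for 14 of the genes and control 3 the lowest for 9. The sums of osteoclast and endothelial markers were higher and that of cartilage markers lower in the libraries labelled mutant, as given above, while neutrophil markers summed to 38.1 to 52.98 FPKM in controls, against 46.4 to 96.6 FPKM. S100a8 and S100a9 made up most of the neutrophil sum. By mean, they and Ngp, Camp and Ltf were higher in the libraries labelled mutant. Mpo, Elane and Prtn3, all under the filter of 1 FPKM, were lower there by mean. Lymphoid precursor markers summed to 2.64 to 3.96 FPKM and 3.19 to 3.46 FPKM, with Dntt at 0 in all 6 libraries. The part of these cells in the mitosis values was not tested.

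In order of p the first 5 were Mki67, Birc5, Bub1b, Ccnb2 and Cenpf. Birc5, a subunit of the chromosomal passenger complex, was 31.4, 27.0 and 30.1 FPKM in controls (29.5 ± 2.28, SD, n = 3) and 36.2, 32.8 and 37.2 FPKM in libraries labelled mutant (35.4 ± 2.34). Every labelled mutant value exceeded every control, with a ratio of means of 1.199 and a log2 difference of 0.26 ± 0.08 (adjusted p = 0.281). Mki67, the Ki-67 antigen that coats mitotic chromosomes and marks cycling cells, was 9.03, 8.74 and 8.92 FPKM in controls (8.90 ± 0.146, SD, n = 3) and 10.7, 9.82 and 11.0 FPKM in libraries labelled mutant (10.5 ± 0.617). The groups were apart, with a ratio of 1.18 and a log2 difference of 0.22 ± 0.06 (adjusted p = 0.267).

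Bub1b, the checkpoint kinase-like protein BubR1, was 6.98, 7.76 and 7.44 FPKM in controls, against 8.48, 8.35 and 8.496 FPKM in libraries labelled mutant. The labelled mutant values lay close together and above all controls, and the log2 difference was 0.17 ± 0.06 (adjusted p = 0.398). Cenpf, a kinetochore protein, was 2.28, 2.13 and 2.13 FPKM against 2.56, 2.36 and 2.67 FPKM. These groups were apart as well, by a gap smaller than the range of the labelled mutant values, and the log2 difference was 0.15 ± 0.09 (adjusted p = 0.635). Across the alternatives the adjusted p ran from 0.130 to 0.570 for Birc5, 0.125 to 0.560 for Mki67, 0.211 to 0.661 for Bub1b and 0.386 to 0.845 for Cenpf.

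**Figure D3:**
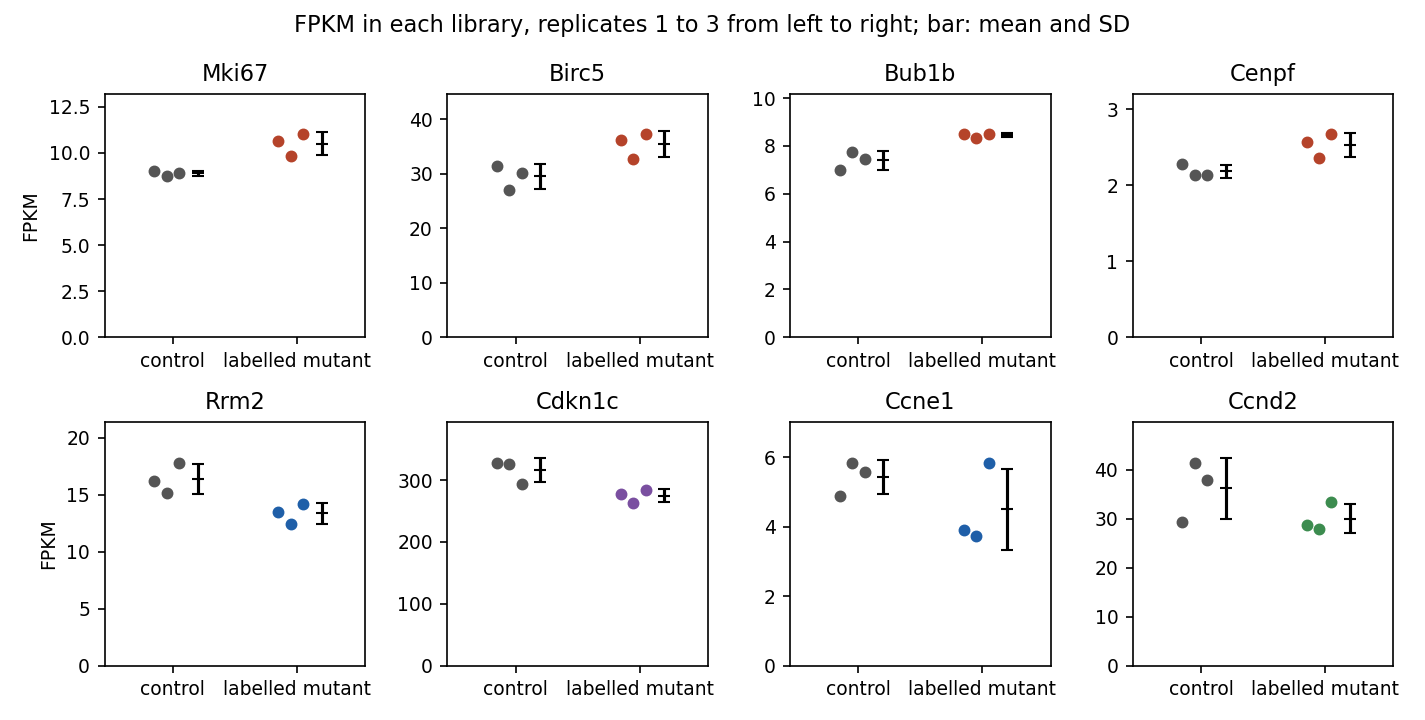
FPKM in each library for 8 members, replicates 1 to 3 from left to right, with mean and SD beside each group of 3. Mki67, Birc5, Bub1b and Cenpf lie higher and Rrm2 and Cdkn1c lower in the libraries labelled mutant without overlap, while the groups of Ccne1 and Ccnd2 overlap.

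The cyclins and kinases that drive mitosis had log2 differences of 0.02 to 0.18. Ccnb2, cyclin B2, was 21.3, 17.4 and 17.8 FPKM in controls, against 22.4, 19.5 and 22.4 FPKM in libraries labelled mutant. Control 1 lay above labelled mutant 2, so the groups overlapped, and the log2 difference was 0.18 ± 0.10 (adjusted p = 0.593). Cdk1, the kinase that cyclin B activates, differed by 0.03 ± 0.10, and its cyclins Ccna2 and Ccnb1 by 0.02 ± 0.09 each. Plk1, Aurka and Aurkb, kinases of the spindle and of cell division, had differences of 0.03 to 0.09, again with overlapping groups.

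The remaining mitosis genes also overlapped between groups. The kinesins of spindle and midbody, Kif11, Kif20a and Kif23, had levels of 6.07 to 10.3 FPKM and log2 differences of 0.03 to 0.10. Top2a, the topoisomerase that untangles sister chromosomes, was 14.1 to 16.1 FPKM in controls, against 15.6 to 17.1 FPKM in libraries labelled mutant. Cdc20, which activates the anaphase-promoting complex, Bub1 of the checkpoint and Cenpa, the centromeric histone, differed by 0.07 to 0.11.

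A CHR word (TTTGAA or TTCGAA, either strand) occurred in 13 of 15 mitosis windows (86.7%), in 3 of 16 S phase windows (18.8%) and in 19.2% of all windows. CCAAT, on either strand, occurred in 14 of 15 mitosis windows (93.3%), in 11 of 16 S phase windows (68.8%) and in 37.4% of all windows. The mitosis windows without a CHR word were those of Birc5 and Ccnb1, and that of Birc5 held no CCAAT word either. In each of the 13 mitosis genes at least 1 CHR word lay between 100 bases before the start and the end of the window, and 14 of the 20 matches lay there. The windows of Mki67, chr7:135716330-135716629 on the minus strand, Bub1b, chr2:118597961-118598260 on the plus strand, and Ccnb2, chr9:70421505-70421804 on the minus strand, are shown as members that pair both words and were named above. Capitals mark CHR and CCAAT words, the latter read as ATTGG where they lie on the other strand.
Mki67: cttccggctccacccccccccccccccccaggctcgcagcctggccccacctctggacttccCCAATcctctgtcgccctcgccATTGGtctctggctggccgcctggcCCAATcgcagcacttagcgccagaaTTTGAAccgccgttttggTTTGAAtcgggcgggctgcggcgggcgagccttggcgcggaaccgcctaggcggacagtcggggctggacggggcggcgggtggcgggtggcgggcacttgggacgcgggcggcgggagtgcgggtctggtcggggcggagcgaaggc
Bub1b: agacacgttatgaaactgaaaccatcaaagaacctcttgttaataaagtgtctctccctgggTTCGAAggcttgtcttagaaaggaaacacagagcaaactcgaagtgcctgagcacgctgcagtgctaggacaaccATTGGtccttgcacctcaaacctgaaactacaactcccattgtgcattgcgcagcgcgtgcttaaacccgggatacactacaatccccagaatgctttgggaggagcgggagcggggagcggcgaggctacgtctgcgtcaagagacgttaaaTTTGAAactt
Ccnb2: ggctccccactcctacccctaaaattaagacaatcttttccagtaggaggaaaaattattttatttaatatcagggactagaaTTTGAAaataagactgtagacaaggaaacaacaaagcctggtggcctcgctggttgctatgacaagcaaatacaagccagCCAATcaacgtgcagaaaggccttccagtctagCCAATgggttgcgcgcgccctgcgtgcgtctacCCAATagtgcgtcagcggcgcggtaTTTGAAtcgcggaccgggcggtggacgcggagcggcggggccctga
The Mki67 window has 2 CHR words and 3 CCAAT words, that of Bub1b has 2 and 1, and that of Ccnb2 has 2 and 3. These are matches of letters only, and binding was not measured.

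The level of each group in single libraries showed where its spread lay. The mean log2 level of the S phase genes, relative to its mean over 6 libraries, was -0.08, 0.09 and 0.07 in controls 1 to 3 and -0.02, -0.15 and 0.09 in labelled mutants 1 to 3. Labelled mutant 2 was lowest, and held the lowest value of 9 of the 18 genes, while labelled mutant 3 was near the top of the controls. For the mitosis genes the same measure was -0.00, -0.01 and -0.13 in controls and 0.06, -0.05 and 0.14 in the libraries labelled mutant. The groups overlapped here too, since labelled mutant 2 lay below controls 1 and 2.

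The mitosis mean minus the S phase mean was 0.38, 0.20 and 0.11 in controls and 0.38, 0.40 and 0.36 in the libraries labelled mutant. Control 1 was level with the libraries labelled mutant and the other controls lay below them. These means are a description of the 36 genes, and no test was made on them. Labelled mutant 3, where the mitosis mean was highest, had the smallest relative depth and the lowest sum of the 6 erythroid markers found, at 2630 FPKM against 4678 to 11685 FPKM in the other 5 libraries. Hba-a1 made up most of that sum, at 2584 FPKM, while Klf1 was not lowest there and Epor was highest there. Labelled mutant 2, where the S phase mean was lowest, had a sum of 8 neural markers of 116 FPKM against 29.6 to 64.8 FPKM elsewhere. Tubb3, at 59.2 FPKM, and Stmn2, at 26.9 FPKM, made up most of it, while Nes, Gfap and Neurod1 were not highest there. The 5 erythroid and 6 neural markers that reached the test did not pass it, none of either list was at 0 in all libraries, and their part in the member levels was not tested.

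**Figure D4:**
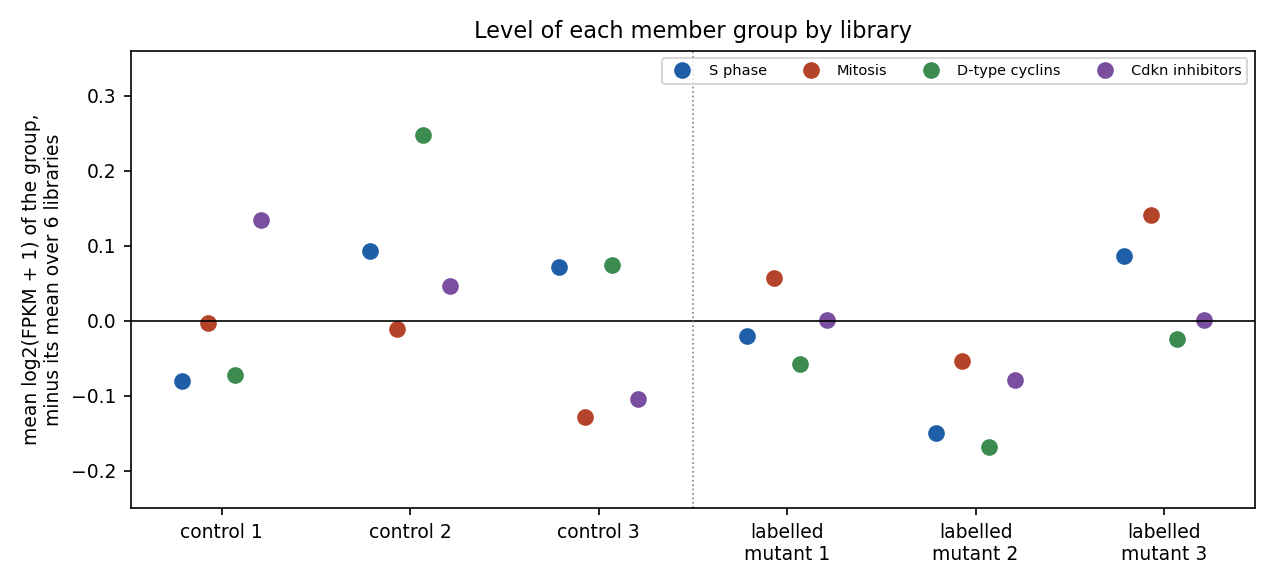
Mean log2(FPKM + 1) of each member group in each library, minus its mean over the 6 libraries; points stand for 18 S phase genes, 18 mitosis genes, 3 D-type cyclins and 4 Cdkn genes. Labelled mutant 2 has the lowest S phase point at -0.15, labelled mutant 3 the highest mitosis point at 0.14, and control 2 the highest D-type cyclin point at 0.25.

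The 3 D-type cyclins, which carry growth signals to the cell cycle, were all lower in value in the libraries labelled mutant, with a median log2 difference of -0.18 and no gene past the test. Ccnd1 was 32.1, 45.2 and 35.7 FPKM in controls, against 33.6, 29.8 and 35.0 FPKM in libraries labelled mutant. Control 2 stood above the other 5 libraries, and the log2 difference was -0.18 ± 0.13 (adjusted p = 0.711). Ccnd2 was 29.3, 41.5 and 38.0 FPKM against 28.8, 27.9 and 33.5 FPKM.

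Controls 2 and 3 of Ccnd2 lay above the whole other group while control 1 lay within it, and the difference was -0.25 ± 0.13 (adjusted p = 0.595). Ccnd3 was 138, 138 and 132 FPKM in controls, against 139, 128 and 124 FPKM in libraries labelled mutant, a difference of -0.06 ± 0.06 (adjusted p = 0.821), at a locus that overlaps Bysl. Without control 2 the median of the 3 genes was -0.05. In every library Ccnd3 was the most abundant of the 3, while the ranges of Ccnd1 and Ccnd2 overlapped.

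Cdkn1c and Cdkn1a were among the most abundant members, while Cdkn1b and Cdkn2c were not. The order of the 4 was the same in all 6 libraries, with no overlap between neighbours. Cdkn1c (p57) was 264 to 328 FPKM, Cdkn1a (p21) 81.6 to 102 FPKM, Cdkn1b (p27) 20.4 to 25.2 FPKM and Cdkn2c (p18) 13.5 to 17.4 FPKM. The first 3 belong to the family that binds cyclin and kinase together, and Cdkn2c to the INK4 family that binds the D-type kinases.

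Cdkn1c, an imprinted gene with a known role in skeletal growth, was 328, 326 and 294 FPKM in controls (316 ± 19.05, SD, n = 3) and 278, 264 and 284 FPKM in libraries labelled mutant (275 ± 10.4). The labelled mutant values all lay below the controls, with control 3 only slightly above labelled mutant 3. The ratio of means was 0.870 and the log2 difference -0.20 ± 0.07, with an adjusted p of 0.342 in limma that ran from 0.254 to 0.5997 over the alternatives. Cdkn1c lies at chr7:143458339-143461050 on the minus strand of GRCm38. The sum of cartilage markers, given above, was lower in the same libraries, and their part in the Cdkn1c values was not tested.

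Cdkn1a, a target of p53, was 102, 91.0 and 82.9 FPKM in controls, against 97.5, 96.5 and 81.6 FPKM in libraries labelled mutant. The groups covered nearly the same range, with a log2 difference of -0.00 ± 0.10 (adjusted p = 0.997) and a 95% interval of -0.24 to 0.24. Cdkn1b was 25.2, 21.7 and 20.8 FPKM against 22.3, 20.4 and 23.2 FPKM, a difference of -0.04 ± 0.09 (adjusted p = 0.943). Cdkn2c was 16.05, 16.4 and 13.5 FPKM against 15.4, 14.2 and 17.4 FPKM, a difference of 0.03 ± 0.10 (adjusted p = 0.957). The values of all 3 overlapped, and the sign of each difference changed under some settings.

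Other genes of the same pathways were read from 4 lists of 151 genes, of which 146 reached the test and 0 passed it. An unadjusted limma p under 0.05 was reached by 8 of the 146, against 10.5% of all tested genes. Of 46 other replication genes 26 were higher in value (15 after TPM rescaling and 17 without labelled mutant 3), with a median log2 difference of 0.01. The smallest p belonged to Prim2, the large subunit of primase, at 7.005, 5.96 and 6.67 FPKM in controls, against 7.88, 8.32 and 8.08 FPKM in libraries labelled mutant. Its groups were apart, with a difference of 0.27 ± 0.07 (adjusted p = 0.232). Gmnn, geminin, which blocks Cdt1 outside G1, was 5.64, 5.55 and 6.17 FPKM against 6.86, 7.17 and 6.67 FPKM, also apart, with a difference of 0.22 ± 0.07 (adjusted p = 0.294). Rfc4, of the complex that loads Pcna, differed by 0.18 ± 0.08 (adjusted p = 0.518).

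Of 62 other mitosis genes 49 were higher in value (43 after TPM rescaling), with a median of 0.09, close to the 0.08 of the 18 members. The count was 41 without labelled mutant 3 and 59 without labelled mutant 2. Labelled mutant 3 was again the highest library, for 37 of the 62. Ckap2l, a spindle protein, was 6.26, 7.56 and 6.87 FPKM in controls, against 8.75, 8.12 and 8.78 FPKM in libraries labelled mutant, with a difference of 0.28 ± 0.08 (adjusted p = 0.253). Its lowest labelled mutant value lay above its highest control. Hjurp, which deposits Cenpa at centromeres, differed by 0.22 ± 0.07 (adjusted p = 0.305), and Cdca8, a partner of Birc5, by 0.20 ± 0.08 (adjusted p = 0.407). In 8 of the 62 the groups were apart, each higher in the libraries labelled mutant, against 9.34% of all tested genes.

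**Figure D5:**
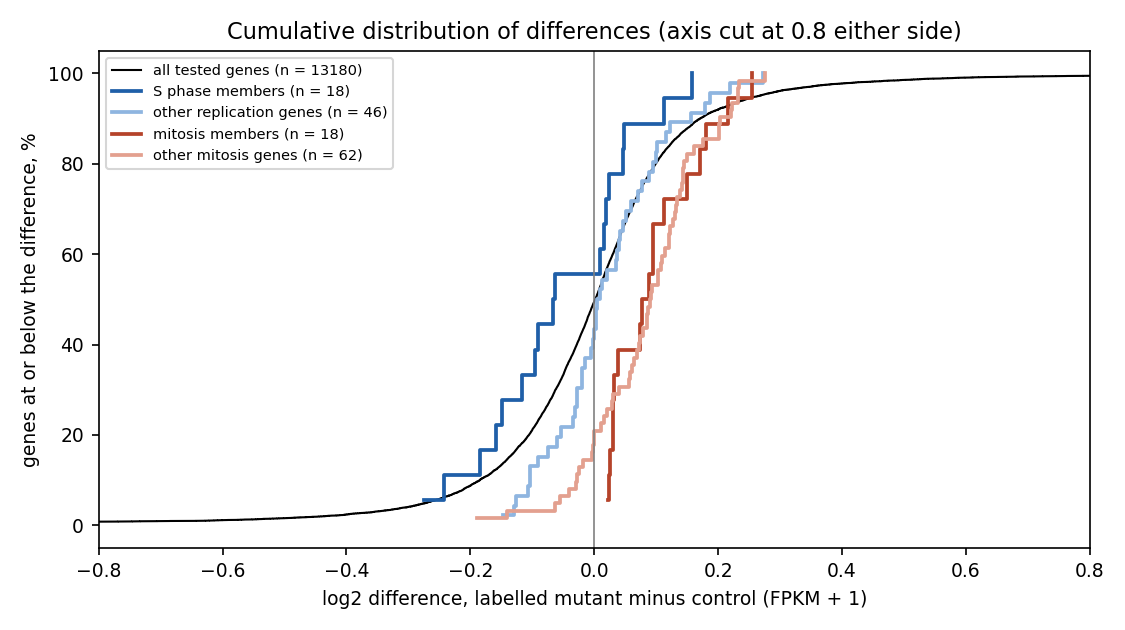
Cumulative share of genes against the log2 difference on log2(FPKM + 1), for all 13180 tested genes, the 18 S phase and 18 mitosis members and the 46 and 62 other genes of each kind; the axis ends at 0.8 on either side. Both mitosis curves lie to the right of the curve of all genes over most of their length, and the S phase members lie to its left over most of theirs.

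Among 24 other genes of G1 and kinase control, 17 were higher in value (7 after TPM rescaling), with a median of 0.04. Cdkn2b, an INK4 inhibitor, was 0.792, 0.729 and 0.963 FPKM in controls, against 2.08, 1.64 and 1.502 FPKM in libraries labelled mutant. Its control mean of 0.828 FPKM lay under the filter of 1 FPKM, and it reached the test only through the libraries labelled mutant, so its ratio of means of 2.10 is given as a description only. Mycn, a transcription factor of proliferating precursors, was 2.94, 3.53 and 2.72 FPKM against 1.77, 2.15 and 1.89 FPKM, apart and lower, with a ratio of 0.633 and a difference of -0.46 ± 0.11 (adjusted p = 0.172). Cdkn3, a phosphatase that acts on cyclin-dependent kinases, differed by 0.30 ± 0.13 (adjusted p = 0.505).

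The 14 p53 target genes, listed beside Cdkn1a, gave 4 higher and 10 lower values with a median of -0.03; without control 2 the count higher was 8, and without labelled mutant 3 it was 6. Phlda3, an inhibitor of Akt signalling, was 48.8, 57.3 and 45.7 FPKM in controls, against 43.03, 43.5 and 40.2 FPKM in libraries labelled mutant. Its groups were apart, and the difference was -0.25 ± 0.09 (adjusted p = 0.377). Aen, a nuclease, differed by -0.17 ± 0.10 (adjusted p = 0.615), and Gadd45a, a stress-induced growth arrest gene, by 0.31 ± 0.19 (adjusted p = 0.675).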

How the data were processed

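Messenger RNA of 6 calvaria libraries was sequenced after a stranded preparation, per the labels' protocols, and group and replicate number come from the titles. The values are FPKM, made by the authors with Cufflinks and used as deposited. The submitters' processing notes name TopHat2 2.0.13, Bowtie2 2.2.3, SAMtools 0.1.19, Cufflinks 2.2.1 and mm10. Not given in the sources used here are the annotation, whether counting used strand, any normalization between libraries, and the read totals. Cufflinks divides fragments among overlapping genes by a model, and 7 members overlap another coding gene: Mcm7, Gins2, Ccne2, Ccna2, Cdc20, Kif20a and Ccnd3. Fragments of Tyms may also be shared with Tyms-ps.

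A mean of 1 FPKM or more was required of each gene. The two-sided test was that of limma 3.58.1 (lmFit, eBayes with trend, under R 4.3.3) on log2(FPKM + 1), with Benjamini-Hochberg adjustment over 13180 genes at 0.05. Differences on this scale understate changes of low genes, while ratios are of mean FPKM. The procedure was also tested on simulated data. Relative depth was read from genes with values under 0.05 FPKM in both control 1 and the library compared with it. It was the ratio of the 2 values that the most genes shared within 2%. Between 43.7% and 47.8% of these genes shared it. The members, the gene lists and the marker lists were chosen with earlier results of these data known. Values in every library are given for the first 5 members by p in each group and any past the threshold, and values for the first 3 genes by p in each other list. Members named for their level, spread or promoter were chosen after their values were seen. Alternatives were another pseudocount (0.1), no filter and a filter at 5 FPKM, median-of-ratios, TPM and quantile scaling, array weights, eBayes in its robust form and with no trend, a replicate block, and each library in turn left out. Gene positions are from GENCODE M21 and promoter windows from RefSeq. Of the windows, 32 of 38 end inside a transcript of their gene in that annotation. No window was matched for Aurkb, Ccna2, Ccnd1, Ccnd2, Ccne2, Cdkn1c, Gins1, Gins2, Kif20a and Mcm4.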

Additional observations from a re-analysis of the deposited data

How the results depend on the processing

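No member and no gene of the 4 other lists passed the threshold under any of the 16 alternatives, and the smallest adjusted p of a member was 0.0954, for Rrm2 with array weights. Over all tested genes, 69 higher and 11 lower became 44 and 6 when low genes were kept, 152 and 31 under array weights, and 23 and 2 under the replicate block. TPM rescaling gave 40 higher, and it moved the median of all genes by -0.05. Leaving out 1 library gave 14 to 34 higher and 1 to 12 lower. The cause of these moves was not tested. The median of the D-type cyclins ran from -0.288 to -0.0548 with 1 library left out. Pth1r passed the threshold with array weights, at 0.40 (adjusted p = 0.0458). Differences near 0 changed sign, and the cause was not tested. Cdkn1a was 0.00494 with quantile normalization, 0.0891 with array weights and -0.0737 to 0.0805 with 1 library left out. Cdkn1b was 0.00332 with array weights and -0.0892 to 0.0427 with 1 library left out. Cdkn2c was -0.0221 with TPM rescaling and -0.0540 to 0.0953 with 1 library left out. The labels do not say what the replicate numbers stand for. Deviations of same-numbered libraries from their group means correlated at 0.0163, -0.0714 and 0.0152. Those of differently numbered libraries correlated at -0.0585 to 0.0454. With 3 libraries a group, these values cannot tell whether a deviation was shared, or whether same-numbered libraries shared a litter or day. The replicate block changed no call among the members, lists and Pth1r. With 3 libraries a group, the 95% intervals given above limit what can be said of each gene, and absolute depth is unknown.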
